A study of Mus musculus with 4 samples.

Results

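The mitochondrial respiratory chain genes are the nuclear genes whose symbols match the naming patterns of the subunits of complexes I to V. Of 19938 genes with a singly named probe set, 80 matched: 34 of complex I (Nduf), 4 of complex II (Sdh), 8 of complex III (Uqcr), 17 of complex IV (Cox4 to Cox8) and 17 of complex V (Atp5). They were followed in 4 regions of the embryonic day 17.5 brain of ICR mice, an outbred stock: cerebellum, olfactory bulb, pontine nucleus (a relay of the ventral hindbrain that sends its axons to the cerebellum) and superior colliculus (the visual centre of the dorsal midbrain). The labels name no treatment and no genotype for any group. RNA pooled from 13, 14, 15 and 16 mice, in that order of regions, was hybridised to 1 Affymetrix array per region. With no replicates, values carry neither SD nor p, and region and pooled preparation cannot be told apart.

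The respiratory chain sits in the inner mitochondrial membrane. Complexes I and II pass electrons from NADH and succinate to ubiquinone, complex III passes them to cytochrome c, and complex IV, cytochrome c oxidase, passes them to oxygen. The proton gradient that complexes I, III and IV build drives complex V, the ATP synthase. Most subunits are encoded in the nucleus, a few in mitochondrial DNA, and some subunits of complex IV exist in isoforms that prevail in heart and skeletal muscle, lung or testis. Developing neurons rely on this chain for much of the ATP that axon growth and membrane pumping use.

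Values are log2 signals, so a difference of 0.25 log2 units is a 1.19-fold difference in signal. Genes entered the comparison if at least 1 array read above a floor of 8.56, which is the 50th percentile over all genes and arrays. That floor admitted 10908 genes (54.7%), among them 73 of the 80 respiratory chain genes, and 72 of these exceeded it on every array. The exception was Ndufb10, an accessory subunit gene of complex I, which read 8.47 in the cerebellum. The 7 genes below the floor were all isoform genes of complex IV and are described with the isoforms. A background set of 202 genes for vomeronasal receptors and beta defensins, none above the floor, gave a scale of noise for dim probe sets. Its median level was 5.20 and its 95th percentile 7.33, and 95% of its differences between an array and the rest fell from -0.32 to 0.35. The compared genes were brighter, and noise at their level was not measured. The array medians lay between 8.07 and 8.13. Marker genes of regional identity, 4 or 5 per region, were each highest on the array of their own label, with median differences of 3.35 (cerebellum), 4.20 (bulb), 3.15 (pontine nucleus) and 3.40 (superior colliculus). The markers were chosen with earlier results of these data known, so they are no independent check of the labels. Fewer mitochondria-rich cells and less RNA per cell cannot be told apart in these pooled tissues.

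The respiratory chain genes shared a small displacement. In the olfactory bulb 72 of the 73 compared genes exceeded the mean of the other 3 arrays. Their median difference was 0.25 log2 units, with an interquartile range from 0.17 to 0.31. Of all 10908 compared genes 55.8% read above that mean, and their median was 0.03. In the pontine nucleus 64 of the 73 read below the mean of the others, with a median of -0.19, against 50% of all compared genes and a median of 0.00. The cerebellum had 36 above (39%) and 36 below (60.4%) with a median of 0, beside -0.06 for all compared genes. Centring on the median of all compared genes moved this split to 54 (49.8%) and 19 (49.6%). The superior colliculus had 24 above (49.7%) and 49 below (49.7%) with a median of -0.03. Over all 80 genes with no floor, 77 read above the other arrays' mean in the bulb and 69 below it in the pontine nucleus, with medians of 0.24 and -0.19. Of all 19938 genes 51.7% and 57.8% did so.

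**Figure D1:**
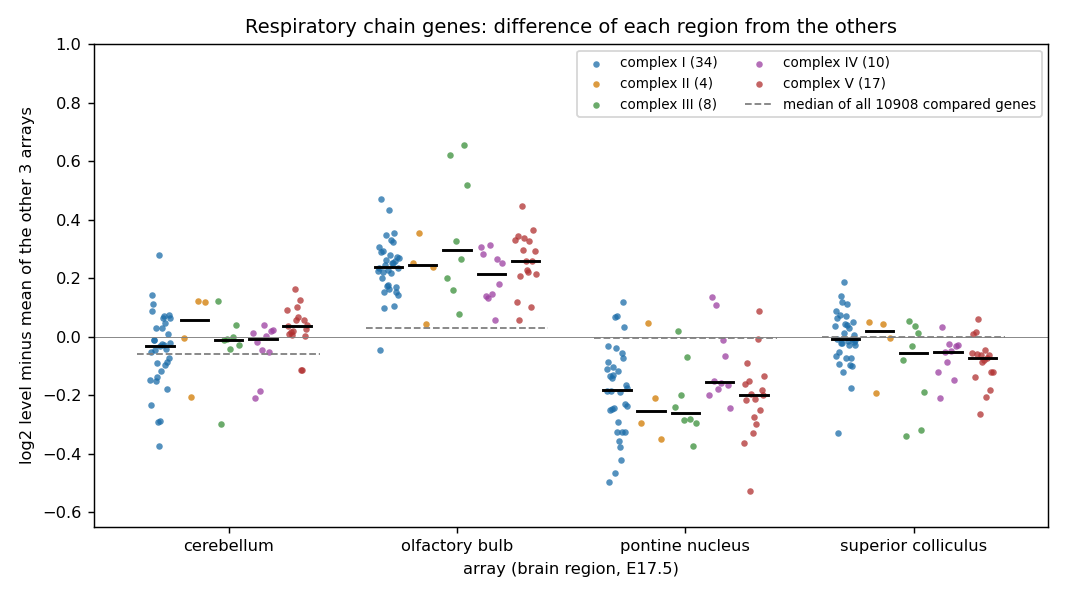
Difference of each compared respiratory chain gene from the mean of the other 3 arrays, in log2 units, for the 4 arrays. Points are genes coloured by complex, black bars the median of a complex, and grey dashed lines the median of all 10908 compared genes; all 5 complex medians are above the dashed line in the olfactory bulb and below it in the pontine nucleus.

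The displacement was small for every gene. With a size rule of 0.25 log2 units from the mean of the other arrays, 38 of 73 genes read higher in the olfactory bulb, where 17.8% of all compared genes did, and 0 read lower, against 13.7%. In the pontine nucleus 22 read lower, against 20.2% of all compared genes, and 0 higher, against 17%. In the cerebellum 1 read higher and 4 lower, against 13.2% and 20.5%, and in the superior colliculus 0 and 4, against 18.2% and 14.4%. With 0.5 log2 units, 3 read higher in the bulb (7.38% of all compared genes) and 0 lower (5.58%), and 0 read higher in the pontine nucleus (5.8%) and 1 lower (10.3%). The cerebellum had 0 higher (6.26%) and 0 lower (6.1%), and the superior colliculus 0 higher (7.97%) and 0 lower (5.63%). None of the 73 lay 1 log2 unit above every other array, which 0.605% of all compared genes did (cerebellum), or 0.972% (bulb), 0.798% (pontine nucleus) and 0.715% (superior colliculus). None lay 1 log2 unit below every other array, against 0.156%, 0.431%, 0.981% and 0.165%. Each count depends on the other arrays as comparator: without the pontine nucleus among the others the bulb's count of 38 was 24, and without the bulb the count of 22 in the pontine nucleus was 10. The share of all compared genes was not counted with these comparators. The difference of a single gene near 0.25 is within the span given above for the background genes, which are dimmer than the compared genes.

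The order of the arrays was shared as well. The olfactory bulb was the highest of the 4 arrays for 69 of the 73 genes, against 27.2% of all compared genes, and the pontine nucleus the lowest for 50, against 26%. Both held for 48 genes, against 11.5%. The order bulb, cerebellum, superior colliculus, pontine nucleus, from high to low, was seen in 32 genes (5.84% of all compared genes). The order with the cerebellum and the superior colliculus exchanged was seen in 14 (5.19%). The 4 exceptions to the bulb as highest were Ndufa12, Ndufb11 and Sdhc, which peaked in the cerebellum (17.9% of all compared genes), and Ndufs4, which peaked in the pontine nucleus (28.4%).

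**Figure D2:**
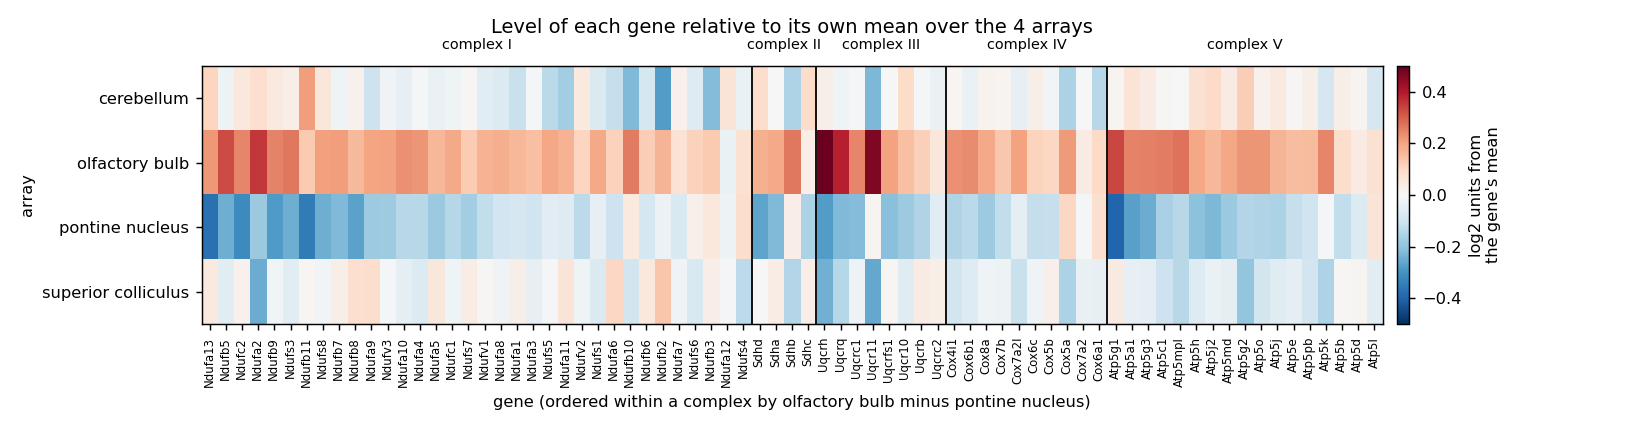
Level of each of the 73 compared genes on the 4 arrays, as log2 units from the gene's own mean over the arrays, grouped by complex and ordered within a complex by olfactory bulb minus pontine nucleus. The bulb row is red, in places pale, for all genes but Ndufa12, and the pontine row is blue for most genes in every complex.

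Pair by pair, the widest separation was that of the olfactory bulb from the pontine nucleus. The bulb read higher for 71 of the 73 genes, against 52.4% of all compared genes, with a median difference of 0.33 log2 units (1.26-fold) and extremes of -0.01 for Ndufa12 and Ndufs4 and 0.77 for Uqcrh. Of the 73, 50 differed by at least 0.25 in that direction, against 25.2%, and 0 in the other, against 20.4%. The bulb exceeded the cerebellum for 70 genes (58.8% of all compared genes) and the superior colliculus for 71 (52.5%), with medians of 0.20 in both pairs and 23 (20.8%) and 27 (20.4%) genes at least 0.25 apart. The cerebellum exceeded the pontine nucleus for 56 genes (44%), by a median of 0.14 and for 18 of them (20.7%) by at least 0.25, and the superior colliculus exceeded it for 57 (48.9%), by 0.11 in the median. The cerebellum and the superior colliculus were closest, with a median of 0.03 and 44 genes higher in the cerebellum (42.5%). These pairs share arrays, so they do not count as separate observations.

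**Figure D3:**
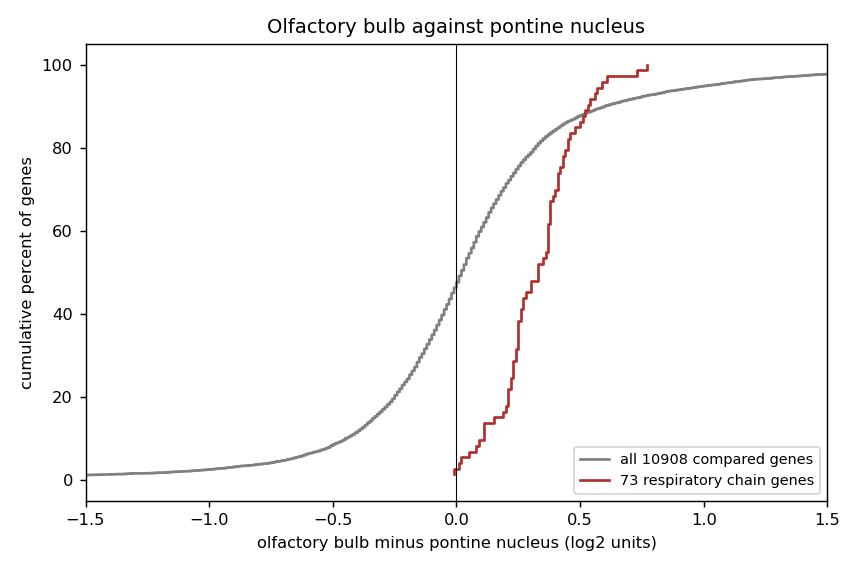
Cumulative percent of genes by their olfactory bulb minus pontine nucleus difference in log2 units, for the 73 respiratory chain genes (red) and all 10908 compared genes (grey); the axis is limited to 1.5 units on either side. The red curve begins at -0.01 and ends at 0.77, while the grey curve is centred near 0 and spreads further on both sides.

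Few of the genes ranged widely. The median range over the 4 arrays was 0.37 log2 units, with extremes of 0.08 for Cox7a2 and 0.77 for Uqcrh, beside a median of 0.39 and a highest range of 6.16 over all compared genes. A range of at least 0.5 was seen in 13 of the 73, against 38.6% of all compared genes, and a range of at least 1 in 0, against 15%. The spread of differences in the olfactory bulb had an SD of 0.12 across the 73 genes and 0.45 across all compared genes. This SD is across genes and is no replicate error.

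Promoter sequences are shown for 4 genes that mark the ends of the pattern: Uqcrh and Uqcr11, with the widest differences in the bulb, Atp5g1, with the widest in the pontine nucleus, and Ndufa12, the gene without the bulb displacement. Each is the 250 bases before the annotated start, from RefSeq on build GRCm38.p6, at chr4:116075071-116075320 on the minus strand, chr10:80406822-80407071 on the minus strand, chr11:96075632-96075881 on the minus strand and chr10:94198785-94199034 on the plus strand. Capitals mark the ETS core CCGGAAG or its reverse complement CTTCCGG, which begins 10 bases before the start in Uqcrh and 66 bases before it in Uqcr11. The other motifs searched on both strands, the NRF1 core GCATGCGC, a longer NRF1 palindrome that contains it and a YY1 string, are not in these 4 windows.
Uqcrh: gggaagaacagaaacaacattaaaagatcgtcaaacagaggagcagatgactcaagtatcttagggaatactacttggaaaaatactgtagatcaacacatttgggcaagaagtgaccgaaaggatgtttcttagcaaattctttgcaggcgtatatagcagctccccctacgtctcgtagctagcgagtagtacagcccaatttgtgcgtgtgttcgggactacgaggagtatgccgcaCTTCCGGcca
Uqcr11: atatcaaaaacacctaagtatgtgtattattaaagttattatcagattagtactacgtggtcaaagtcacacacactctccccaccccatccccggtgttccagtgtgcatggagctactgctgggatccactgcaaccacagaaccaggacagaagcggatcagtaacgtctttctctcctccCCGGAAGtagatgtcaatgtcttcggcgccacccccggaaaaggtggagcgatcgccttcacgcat
Atp5g1: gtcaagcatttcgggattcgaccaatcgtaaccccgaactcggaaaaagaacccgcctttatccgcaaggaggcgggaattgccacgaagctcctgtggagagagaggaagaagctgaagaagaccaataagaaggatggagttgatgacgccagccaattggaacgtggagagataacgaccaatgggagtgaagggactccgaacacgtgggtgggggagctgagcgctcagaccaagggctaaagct
Ndufa12: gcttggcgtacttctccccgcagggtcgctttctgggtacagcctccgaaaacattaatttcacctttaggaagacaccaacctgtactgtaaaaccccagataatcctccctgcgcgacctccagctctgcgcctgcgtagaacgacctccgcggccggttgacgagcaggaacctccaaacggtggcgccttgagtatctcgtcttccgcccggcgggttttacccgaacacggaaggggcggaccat
Of the 80 genes 66 had promoter entries, with 71 windows. The ETS core was in 12 of these windows (16.9%) and in 6.91% of all 32851 windows, and the NRF1 core in 8 (11.3%) against 2.26%. The longer NRF1 palindrome was in 4 (5.63%) against 0.782%, and the YY1 string in 1, that of Atp5j, against 0.301%. The 12 genes with the ETS core and the 50 compared genes with a window but without it had bulb medians of 0.25 and 0.25 and pontine medians of -0.20 and -0.18. The 8 genes with the NRF1 core had a pontine median of -0.05, beside -0.20 for the 54 others, and a bulb median of 0.24 beside 0.25. These matches describe the letters in the windows only.

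Complex I, the NADH dehydrogenase, contributed 34 genes, all above the floor. Their median difference was 0.24 in the olfactory bulb and -0.18 in the pontine nucleus. In the bulb 33 of 34 read above the other arrays' mean (55.8% of all compared genes). The 6 measured genes of the core catalytic subunits, which hold the flavin and iron-sulphur centres, were Ndufs1, Ndufs3, Ndufs7, Ndufs8, Ndufv1 and Ndufv2. All 6 were highest in the bulb (27.2% of all compared genes) and 5 lowest in the pontine nucleus (26%), with medians of 0.24 and -0.20. The 28 accessory subunit genes had medians of 0.24 and -0.16. Ndufs3 read 11.27 (cerebellum), 11.50 (bulb), 10.99 (pontine nucleus) and 11.18 (superior colliculus). Its other probe set gave the same order, at 11.18, 11.42, 10.91 and 11.09. This grouping by structural role was made after the values were seen. Ndufa4 carries a complex I name but is now regarded as a subunit of complex IV. It read 10.68, 10.91, 10.55 and 10.62 in the same order of regions, the same pattern as most of the list.

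Among the accessory subunits, several had a wide range over the arrays. Ndufa13, also known as GRIM-19, read 10.19 (cerebellum), 10.30 (bulb), 9.71 (pontine nucleus) and 10.13 (superior colliculus), so that the pontine nucleus alone stood low, by 0.50 log2 units from the mean of the others. Ndufb11 had its high value in the cerebellum instead, at 11.76, against 11.68 (bulb), 11.20 (pontine nucleus) and 11.56 (superior colliculus). Its other probe set read 11.44, 11.49, 10.93 and 11.25, so the low pontine value was common to both probe sets and the first place of the cerebellum was not. Ndufc2 read 12.83, 13.02, 12.46 and 12.80, and Ndufb9 11.35, 11.55, 11.02 and 11.29, again with the pontine nucleus low. Ndufb5 read 10.87, 11.22, 10.65 and 10.84. Ndufa2 differed from these in that the superior colliculus was lowest, at 9.82, beside 9.88 in the pontine nucleus, 10.15 in the cerebellum and 10.42 in the bulb.

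A few complex I genes went their own way. Ndufa12 was level on the 4 arrays, at 9.96 (cerebellum), 9.86 (bulb), 9.87 (pontine nucleus) and 9.89 (superior colliculus). Ndufs4, an accessory subunit needed for assembly of the electron input module, read 11.90, 12.01, 12.02 and 11.80, with the pontine nucleus and the bulb together above the other arrays. Ndufb2 and Ndufb10 were among the genes low in the cerebellum. There 22 of the 34 complex I genes read below the mean of the others (60.4% of all compared genes). Of the 17 complex V genes 15 read above that mean (39%). Ndufb2 read 8.98 in the cerebellum and 9.43, 9.23 and 9.40 in the bulb, pontine nucleus and superior colliculus. Ndufb10 read 8.47 against 8.95, 8.74 and 8.60. Ndufa6 and Ndufa9 were among the genes with the largest differences above the others in the superior colliculus, by 0.14 and 0.12, which is small on any scale used here.

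Complex II, succinate dehydrogenase, links the citric acid cycle to the chain and has 4 subunits, all encoded in the nucleus. Sdha, the flavoprotein, read 11.09 (cerebellum), 11.28 (bulb), 10.87 (pontine nucleus) and 11.13 (superior colliculus). Sdhb, the iron-sulphur subunit, read 10.88, 11.30, 11.07 and 10.89, so that the bulb was high but the pontine nucleus was second. The membrane anchors had the pontine nucleus low, Sdhc at 12.12, 12.06, 11.87 and 12.06 and Sdhd at 10.53, 10.62, 10.18 and 10.44. Sdhc was the member of this complex without a high bulb value. The median differences over the 4 genes were 0.24 in the bulb and -0.25 in the pontine nucleus.

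Complex III, the cytochrome bc1 complex, had the highest bulb median of the 5 complexes, at 0.30, and a pontine median of -0.26. All 8 genes were highest in the bulb (27.2% of all compared genes) and 7 lowest in the pontine nucleus (26%). The widest differences were those of 3 small accessory subunits. Uqcrh, the hinge protein gene, read 11.35 (cerebellum), 11.81 (bulb), 11.04 (pontine nucleus) and 11.08 (superior colliculus), a bulb difference of 0.65, the largest of the 73. Uqcr11 read 10.77, 11.46, 11.01 and 10.74, a bulb difference of 0.62, and its other probe set read 10.17, 10.94, 10.39 and 10.23. In Uqcr11 the pontine nucleus was second and not last, unlike Uqcrh. Uqcrq read 10.27, 10.68, 10.07 and 10.15. The core proteins Uqcrc1 and Uqcrc2 had bulb differences of 0.33 and 0.08, and Uqcrfs1, the Rieske iron-sulphur protein gene, had differences of 0.27 in the bulb and -0.28 in the pontine nucleus. Cyc1, the cytochrome c1 gene, lies outside the naming patterns and read 11.64, 11.78, 11.50 and 11.57, again with the bulb high and the pontine nucleus low.

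Complex IV had 10 genes above the floor, and all 10 were highest in the olfactory bulb (27.2% of all compared genes). Their medians were 0.22 in the bulb and -0.16 in the pontine nucleus, the lowest medians in size of the 5 complexes in both regions. Cox5a and Cox6a1 read above the other arrays' mean in the pontine nucleus, by 0.14 and 0.11. Cox5a read 10.96 (cerebellum), 11.33 (bulb), 11.22 (pontine nucleus) and 10.96 (superior colliculus), so that the bulb and the pontine nucleus stood above the other arrays. Cox7a2 was the most level of all 73 genes, at 11.13, 11.17, 11.12 and 11.09.

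The tissue-type isoforms of complex IV read low on all 4 arrays. All 7 such genes, Cox4i2 (lung and pericytes), Cox6a2, Cox7a1 and Cox8b (heart and muscle), and Cox6b2, Cox7b2 and Cox8c (testis), lay below the floor on every array, and all 10 of the other isoform family genes lay above it. Cox7b2 stayed under the background percentile of 7.33 everywhere, at 5.91 to 6.06. Cox8b, at 7.48, 7.21, 7.67 and 7.31, and Cox6b2, at 7.64, 7.67, 7.30 and 7.90, straddled it. The other 4 read above that percentile on every array: Cox4i2 at 8.31 to 8.50, Cox6a2 at 8.11 to 8.42, Cox7a1 at 7.63 to 7.92 and Cox8c at 7.97 to 8.32. A low array value is no measure of absence, and levels of different probe sets are not comparable with each other. Of the 7, 5 read above the other arrays' mean in the bulb, where 51.7% of all 19938 genes did so with no floor. The largest differences of the group were -0.44 and 0.36 for Cox6b2, in the pontine nucleus and the superior colliculus.

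**Figure D4:**
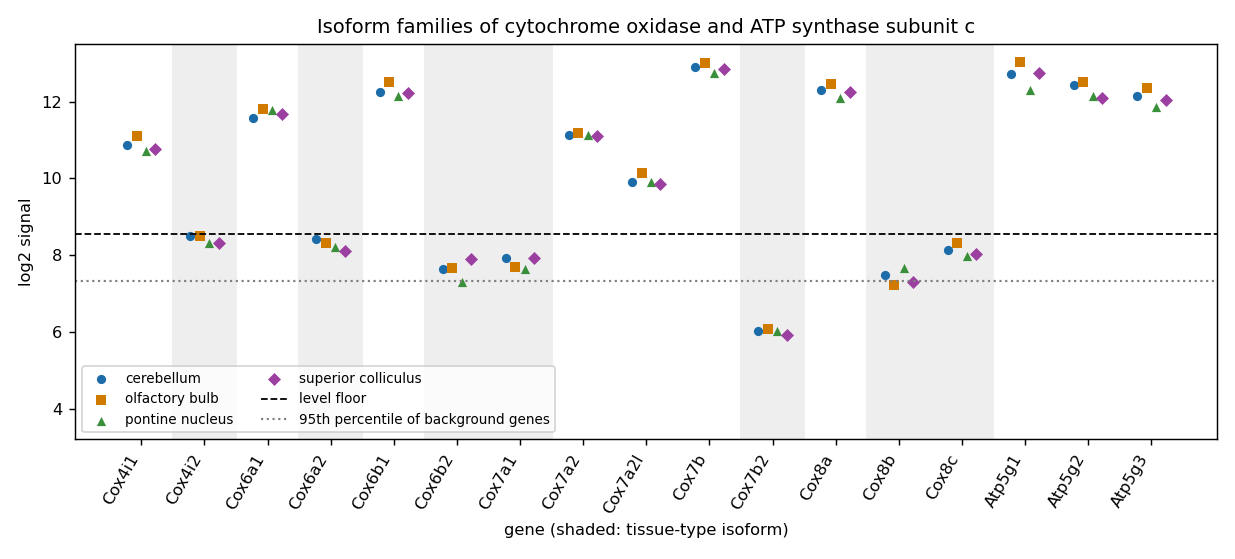
log2 signal of the isoform families on the 4 arrays; shaded genes are tissue-type isoforms, the dashed line is the floor of 8.56 and the dotted line the background percentile of 7.33. All shaded genes lie under the dashed line on every array and all other genes above it; heights of different genes are not comparable.

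The ubiquitous partners followed the general pattern to different degrees. Cox4i1 read 10.87, 11.09, 10.71 and 10.77 in the cerebellum, bulb, pontine nucleus and superior colliculus, Cox6b1 12.25, 12.52, 12.15 and 12.22, and Cox8a 12.29, 12.46, 12.09 and 12.25. In these 3 the bulb was high and the pontine nucleus low. Cox7b read 12.89, 13.01, 12.75 and 12.85 with the same order. Cox6a1 read 11.57, 11.81, 11.79 and 11.67, with the bulb and the pontine nucleus level. Cox7a2l, whose product joins complexes III and IV into supercomplexes, read 9.91, 10.15, 9.90 and 9.84, with the bulb high and the other arrays level. Of 8 striated muscle genes 6 lay below the floor, and the list's median level lay between 7.78 and 8.29. The 2 above it, Acta1 and Actc1, had a median difference of 0.15 in the bulb and -0.24 in the pontine nucleus. Of 8 pericyte genes 6 lay above it, with median levels of the 8 genes between 8.91 and 9.17, and their median difference was 0.13 in the bulb and -0.23 in the pontine nucleus. Cox4i2, itself an isoform of pericytes, had 0.13 and -0.12. The members of both lists went both ways. With no floor, 3 of 8 muscle genes read above the rest in the bulb and 5 below, with Myh3, an embryonic myosin gene, at -0.58 there and 0.55 in the pontine nucleus. Of the 8 pericyte genes 7 read above the rest in the bulb and 6 below it in the pontine nucleus, with Vtn at 1.27 and Notch3 at -0.59 in the bulb. Their part in the isoform values was not tested.

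Complex V, the ATP synthase, had 17 genes above the floor, and all 17 were highest in the olfactory bulb (27.2% of all compared genes). The medians were 0.26 in the bulb and -0.20 in the pontine nucleus, where 16 of 17 read below the mean of the others (50%). The 3 genes of the membrane ring of c subunits, which encode the same mature protein, had the widest median differences of its groups, 0.34 in the bulb and -0.33 in the pontine nucleus. Atp5g1 read 12.71 (cerebellum), 13.03 (bulb), 12.30 (pontine nucleus) and 12.74 (superior colliculus), and its other probe set 12.65, 12.96, 12.26 and 12.70. Its pontine difference of -0.53 was the lowest of the 73. Atp5g3 read 12.14, 12.35, 11.85 and 12.05. Atp5g2 read 12.42, 12.52, 12.15 and 12.10, so that the superior colliculus and the pontine nucleus were both low and the cerebellum was close to the bulb.

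The catalytic head and the stalks had smaller group medians. Their widest range over the arrays, 0.52 for Atp5a1, was near those of Atp5g2 (0.42) and Atp5g3 (0.50) of the ring. It was below that of Atp5g1 (0.73). Atp5a1, the alpha subunit gene, read 12.26, 12.44, 11.92 and 12.15 in the 4 regions, with the pontine nucleus 0.36 below the mean of the others. Atp5b, the beta subunit gene, read 13.38, 13.44, 13.23 and 13.36, and Atp5d, the delta subunit gene of the central stalk, 13.35, 13.38, 13.27 and 13.35, so these very bright probe sets were nearly level. Atp5c1, the gamma subunit gene of the central stalk, read 11.96, 12.21, 11.79 and 11.85, a bulb difference of 0.34. The 4 peripheral stalk genes, Atp5pb, Atp5h, Atp5j and Atp5o, were all highest in the bulb and lowest in the pontine nucleus, with medians of 0.24 and -0.21. Of all compared genes 11.5% were so. Dim and bright members had similar medians in the bulb and the pontine nucleus. The 36 genes below the list's median level had 0.26 and -0.16 there, and the 37 at or above it 0.23 and -0.20. In the cerebellum they differed. There 10 of the dim genes read above the mean of the others and 25 below, with a median of -0.04. Of the bright genes 26 read above it and 11 below, with a median of 0.03. All compared genes had 39% above and 60.4% below. The part of signal level in the cerebellar counts of complexes I and V was not tested.

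Several of these genes have near-identical copies in the genome, and 16 of the 80 had more than 1 probe set. All 24 probe sets that were not used for a gene also read above the other arrays' mean in the bulb, with a median of 0.20, and 19 of 24 read below it in the pontine nucleus, with a median of -0.18. The 5 that did not were those of Atp5l, whose 6 probe sets all had the cerebellum lowest. Probe sets of one gene can share sequence with each other and with gene copies, so they are not separate observations. Cox7c and Ndufb4 had only probe sets with several symbols and have no value here.

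Of the other mitochondrial lists, the electron carrier and ATP export list, with 10 genes above the floor, had medians of 0.19 in the bulb and -0.16 in the pontine nucleus. All 10 read above the other arrays' mean in the bulb (55.8% of all compared genes). In this list the ADP/ATP carriers differed: Slc25a4, the heart and muscle type, read 12.58, 12.82, 12.55 and 12.67, and Slc25a5, the type of dividing cells, 12.76, 12.75, 12.35 and 12.36. So Slc25a5 had the cerebellum and the bulb high together, while Slc25a4 had the bulb alone high. Citric acid cycle and pyruvate dehydrogenase genes had medians of 0.17 and -0.17. Of these 17 genes 16 read above the other arrays' mean in the bulb (55.8%) and 15 below it in the pontine nucleus (50%). The exception in the bulb was Suclg2, which read 9.19 in the cerebellum and 8.32, 8.22 and 8.43 elsewhere. Mitochondrial ribosomal protein genes (69 above the floor) had medians of 0.16 and -0.06, and assembly factor genes (35) 0.08 and -0.08. The assembly factors were lowest in the cerebellum, with a median of -0.13 and 29 of 35 below the mean of the others (60.4%), and so had another order than the chain. Among them were Atpaf1, an ATP synthase assembly factor gene, at -0.47 and Sco1, a copper chaperone gene for complex IV, at 0.34 in the pontine nucleus.

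Lists outside the chain gave a measure of how general the lean was. Proteasome subunit genes, with 33 of 36 above the other arrays' mean in the bulb (55.8% of all compared genes), had medians of 0.17 there and -0.11 in the pontine nucleus. Glycolysis genes had medians of 0.29 and -0.28 over 13 genes, with Eno2, the neuronal enolase gene, at 10.29 (cerebellum), 11.28 (bulb), 10.10 (pontine nucleus) and 11.01 (superior colliculus). Pfkp, a phosphofructokinase gene, went the other way, at 11.09, 10.25, 10.99 and 10.89, or -0.74 in the bulb and 0.25 in the pontine nucleus. The medians of these non-mitochondrial lists had the sign seen in the respiratory chain, and some members had the opposite sign. Cytosolic ribosomal protein genes had the same signs in the bulb and the pontine nucleus but another order. Their medians were 0.13 (cerebellum), 0.13 (bulb), -0.07 (pontine nucleus) and -0.16 (superior colliculus). Vacuolar ATPase genes were high in the bulb and the superior colliculus, at 0.23 and 0.18, and low in the cerebellum, at -0.25. Their pontine median was -0.09, so the signs in the bulb and the pontine nucleus were again those of the chain. All 18 vacuolar ATPase genes above the floor read above the other arrays' mean in the bulb (55.8% of all compared genes). In the pontine nucleus 14 read below it (50%). With no floor, 20 of 24 read above it in the bulb and 4 below (51.7% and 47.6% of all 19938 genes). Then 18 of 24 read below it in the pontine nucleus (57.8%). That list's pattern also caught Atp6ap1l, which passed the floor through the bulb alone, at 9.59 there against at most 6.01 elsewhere. No test of a difference between lists was made.

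**Figure D5:**
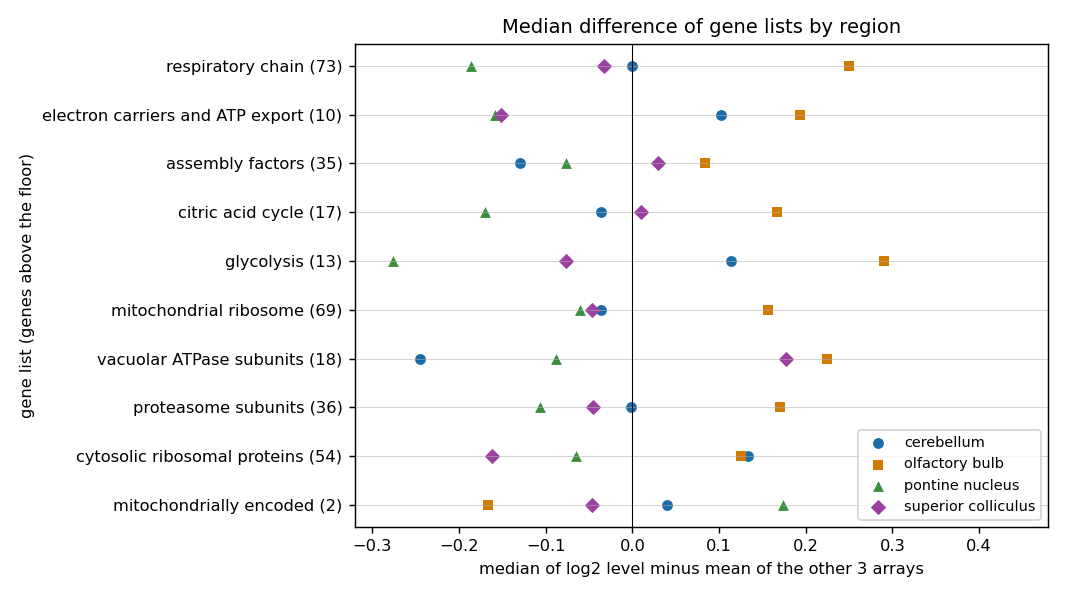
Median difference from the mean of the other 3 arrays, in log2 units, for the respiratory chain and 9 other gene lists (number of genes above the floor in brackets), with 1 symbol per region. The olfactory bulb is at the right and the pontine nucleus at or near the left for the lists of nuclear mitochondrial genes and for the glycolysis and proteasome lists. The order is turned for the 2 mitochondrially encoded genes.

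The 2 measured genes of mitochondrial DNA went the other way. COX2, a catalytic subunit of complex IV, read 13.45 (cerebellum), 13.26 (bulb), 13.58 (pontine nucleus) and 13.37 (superior colliculus), and ND3, a membrane subunit of complex I, read 12.93, 12.81, 13.00 and 12.88. In both the pontine nucleus was highest and the bulb lowest, with differences of 0.22 and -0.21 for COX2 and 0.13 and -0.13 for ND3. These are sizes within the span of the background genes, which read far dimmer, and with 2 genes no more can be said of mitochondrial transcripts.

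Regulators of mitochondrial gene expression had a median over 16 genes of 0.09 in the bulb and -0.05 in the pontine nucleus. In the bulb 11 read above the mean of the others (55.8% of all compared genes). In the pontine nucleus 9 read below it (50%). Among the 16, Ppargc1b passed the floor through the bulb alone, at 8.59. With no floor, 12 of 18 read above the mean in the bulb (51.7% of all 19938 genes) and 10 below it in the pontine nucleus (57.8%). Ppargc1a, the coactivator PGC-1 alpha, read 11.05 (cerebellum), 10.77 (bulb), 9.91 (pontine nucleus) and 11.03 (superior colliculus), so that the pontine nucleus alone stood low, at -1.04 log2 units from the mean of the others. Esrrg, a nuclear receptor that works with it, was low in the bulb and highest in the pontine nucleus, at 11.48, 8.87, 11.95 and 10.97. Esrrb read 8.97, 6.92, 7.26 and 9.48, high in the cerebellum and the superior colliculus. Nrf1, Gabpa and Yy1, whose products bind the promoter motifs named above, differed from the mean of the others by at most 0.30 in size. Among these 3, Gabpa in the superior colliculus had the widest difference, at 9.25 against 9.64, 9.53 and 9.49.

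Other features of the tissue differed between the arrays in orders of their own. All 7 genes of dividing cells were highest in the cerebellum, with medians of 1.48 there, 0.77 (bulb), -1 (pontine nucleus) and -1.37 (superior colliculus). Genes of synapses and neuron maturity had medians of -0.28, -0.01, 0.12 and 0.12 over 10 genes. The synapse list's members went strongly both ways in the bulb, from 1.65 for Camk2a and 0.51 for Syn2 to -0.96 for Nefl and -1.52 for Nefm, so its median stands for no common level. Camk2a, a kinase gene of excitatory synapses, was highest in the bulb and read -0.77 in the pontine nucleus. Of other cell types, all 4 choroid plexus genes were under the floor throughout. Of 5 microglial genes 2 lay above it, with medians of 0.24 in the bulb and -0.21 in the pontine nucleus. With no floor, 4 of the 5 microglial genes read above the rest in the bulb. In the pontine nucleus 2 of them read above the rest and 3 below. The 4 endothelial genes above the floor had medians of 0.05 in the bulb and in the pontine nucleus. Alas2, the erythroid haem synthesis gene, read 9.15, 9.51, 8.76 and 9.26, with the bulb high and the pontine nucleus low. Their part in the shift of the respiratory chain genes was not tested.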

How the data were processed

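Deposited values were log2 signals per probe set and array, to 2 decimals. The scale was inferred from the values (2.43 to 14.57). Per the submitters' processing notes the authors used Affymetrix Expression Console. Version, algorithm, normalization and build: not given in the sources used here. Scaling between arrays can remove a general difference between regions, and bright probe sets can compress differences. Per the labels, sense-strand cDNA was made from total RNA and biotin-labelled.

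Of 35556 probe sets, 21789 had 1 symbol, 1621 several and 12146 no entry in the array annotation. Of the 80 genes, 80 were matched by Entrez ID to RefSeq, with 0 symbols changed. The probe set with the highest mean gave a gene's level. Each region's level was set against the mean of the other 3, with rules of 0.25, 0.5 and 1 log2 units.

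No test could be made with single arrays. Their number limits the precision. Members, background set, floor and lists were chosen with earlier results of these data known. Named were, among compared genes, the 3 with the widest difference in each direction and region, those with a range of at least 0.5, complex II and all isoform family genes, the last whatever their level. From other lists up to 3 genes with the largest difference in a region were to be named. Genes given beyond that rule (Ndufa4, Uqcrc1, Uqcrc2, Uqcrfs1, Atp5b, Atp5c1, the core, peripheral stalk, carrier, regulator and other list genes, COX2 and ND3), and the grouping by role, were chosen after their values were seen.

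Alternatives were other floors, quantile normalization, centring, the mean of probe sets, other comparators and leaving out a complex. The calculation was tested on simulated data. Python 3.11.15, NumPy 2.4.6, pandas 2.3.3 and Matplotlib 3.10.9 were used.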

Additional observations from a re-analysis of the deposited data

How the results depend on the processing

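The direction held in the olfactory bulb and the pontine nucleus under every alternative run. Over other floors, quantile normalization, centring, averaged probe sets, other comparators and the list without each complex in turn, the bulb median lay between 0.20 and 0.28 and the pontine median between -0.23 and -0.12. The cerebellar median lay between -0.08 and 0.09 and that of the superior colliculus between -0.13 and 0.04, so neither has a stable sign. Centring on all compared genes turned the cerebellar split of 36 above and 36 below into 54 and 19 (49.8% and 49.6% of all compared genes). Quantile normalization turned that split into 45 and 28 (44.1% and 55.9%).

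The counts at 0.25 log2 units were less stable. Quantile normalization gave 26 higher in the bulb (38 as deposited) and 29 lower in the pontine nucleus (22), which turns the order of these counts. The share of all compared genes past 0.25 was not counted under the alternatives. From these counts, a change of the list and a change of all genes cannot be told apart. With 0.5 log2 units the cerebellum kept 0 on either side, the bulb 3 on the high side, and on the low side the pontine nucleus 1 and the superior colliculus 0. With 1 log2 unit beyond every other array all of these were 0. With no floor, 1 gene was lower in the bulb, 1 higher in the pontine nucleus and 1 higher in the superior colliculus. The 4 lower genes of the cerebellum were 1 with a 75th percentile floor and 1 with centring. Its 1 higher gene was 0 with averaged probe sets, 3 against the median of the other arrays, 5 without the bulb as comparator and 0 without the pontine nucleus. Against the median of the others 1 gene was higher in the pontine nucleus. Without the bulb as comparator the cerebellum had 2 lower. The pontine nucleus then had 2 higher and 10 lower. For the superior colliculus these were 1 and 0. Without the pontine nucleus the bulb had 24 higher. Ndufa13 in the cerebellum turned to -0.025 without the pontine nucleus as comparator. Of the other values of named genes, 1155 moved by less than the background genes' SD of 0.165 and 20 by more. Of complex medians 173 moved by less than 0.1 and 7 by more. One array per region gives no replicate error, so all of this shows dependence on processing only.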
